A study of Homo sapiens with 18 samples.

Results

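The values described here are the estimated numbers of mature (spliced) and primary (unspliced) RNA molecules per HEK293 cell, gene by gene, in libraries of total RNA. Members are the gene entries with a value for a primary transcript, that is, with at least 1 intron in the authors' models: 38500 of the 63568 entries of the series, in 3 of its 18 libraries. HEK293 is a human embryonic kidney cell line, kept here in DMEM with fetal bovine serum. The series as a whole follows RNA made during labelling with 4-thiouridine, a uridine analogue, to describe how RNAs of coding and non-coding genes are made, spliced and degraded. The libraries of total RNA were not selected for labelled RNA, and their labels give no labelling time. Each removed ribosomal RNA by another method: oligo-dT selection (the poly(A) library), RNase H with oligos (the RNase H library) or Ribo-Zero (the Ribo-Zero library). With 1 library per selection method there is no replicate, so each value stands without an error and no difference below has a test. Read depth is unknown, because neither TPM (transcripts per 1000000 transcripts) nor copies carry it.

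A gene is first copied into a primary transcript that still holds its introns, splicing turns it into mature RNA, and most mature mRNA is exported and translated until it is degraded. The number of mature molecules in a cell at any moment therefore reflects both how often the gene is transcribed and how long its RNA lasts, while the number of primary molecules reflects transcription and the speed of splicing. Counting molecules from sequencing needs spike-in RNAs, synthetic transcripts added in known amounts, which tie read abundance to molecule number. These are averages over many cells: 1 molecule in every cell and several molecules in few cells cannot be told apart. Fewer cells of a type and less RNA per cell cannot be told apart either.

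The windows below come from the 5 named genes with the most mature copies whose start is in the RefSeq promoter table (GRCh38.p14), and run from base -40 to base 20 around the start, 5′ to 3′ on the gene's own strand. They show annotated starts of genes with abundant mRNAs. Where the mRNAs of these cells begin was not measured, and a gene may have other starts. Capitals mark TATAA before the start (searched from -40 to -1), the core of the TATA box that positions RNA polymerase II, and CTTTC around it (searched from -10 to 20), part of the pyrimidine-rich start of mRNAs for the translation machinery.
EEF1A1, chr6:73521013-73521072, minus strand: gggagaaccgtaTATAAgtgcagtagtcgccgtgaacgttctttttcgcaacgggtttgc
RPS27, chr1:153990722-153990781, plus strand: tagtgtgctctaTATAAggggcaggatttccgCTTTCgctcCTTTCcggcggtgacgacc
GAPDH, chr12:6535224-6535283, plus strand: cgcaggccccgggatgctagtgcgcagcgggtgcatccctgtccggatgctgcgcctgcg
RPL26, chr17:8383174-8383233, minus strand: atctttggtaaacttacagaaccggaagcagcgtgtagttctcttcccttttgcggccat
RPS10, chr6:34426050-34426109, minus strand: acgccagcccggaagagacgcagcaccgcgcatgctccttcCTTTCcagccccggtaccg
EEF1A1 and RPS27 held TATAA at base -28. RPS27 and RPS10 held CTTTC, and the windows of GAPDH and RPL26 held neither string. The share of all promoters with each string is given with the copy classes.

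In each library the copies followed the TPM of the same gene exactly along a power curve, with no gene off the curve and the same curve for mature and primary values. At 1 TPM the curve gave 0.123 copies in poly(A), 0.444 in RNase H and 0.201 in Ribo-Zero. At 1000 TPM it gave 74.7 copies in poly(A), 376 in RNase H and 266 in Ribo-Zero. The curves were not parallel: the copies ratio of poly(A) to RNase H at equal TPM was 0.277 at 1 TPM and 0.199 at 1000 TPM, that of poly(A) to Ribo-Zero was 0.613 and 0.281, and that of RNase H to Ribo-Zero was 2.21 and 1.41. A fold change between libraries therefore holds the calibration as well as the RNA, and ranks within a library are the same in copies and in TPM. The deposited locus copies come from the summed TPM of both forms: they lay between 95.1 and 100% of mature plus primary copies in poly(A), between 98.3 and 100% in RNase H and between 100 and 103% in Ribo-Zero, and are not described further.

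Of the HEK293 markers that the list held with a primary value, 2 of 4 had more than 1 copy in each library. VIM (vimentin, an intermediate filament protein) had 77.7 copies in poly(A), 285 in RNase H and 142 in Ribo-Zero, and INA (internexin, a neuronal intermediate filament) had 4.51 copies in poly(A), 13.8 in RNase H and 3.08 in Ribo-Zero. PAX2, a kidney transcription factor, stayed under 1 copy with 0.132 in poly(A), 0.681 in RNase H and 0.0279 in Ribo-Zero, and the neurofilament gene NEFM had 0.0465 copies in poly(A), 0.0470 in RNase H and 0.00704 in Ribo-Zero. None of 12 markers of other cell types reached 1 copy in any library. 3 of them were at 0 in all libraries, and the highest, COL1A1 (collagen of fibroblasts), had 0.387 copies in poly(A), 0.818 in RNase H and 0.0633 in Ribo-Zero.

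Most intron-containing genes were present at a few copies per cell or fewer. At least 1 mature copy per cell was listed for 8473 genes in poly(A), 11394 in RNase H and 8576 in Ribo-Zero, and for 7940 genes in all 3 libraries. Counting every gene listed above 0, the median long non-coding RNA (lncRNA) gene had 0.0489 mature copies in poly(A), 0.119 in RNase H and 0.0240 in Ribo-Zero, far below 1 molecule per cell. The median protein-coding gene had 1.15 copies in poly(A), 3.26 in RNase H and 1.16 in Ribo-Zero. Only 102 of 11377 lncRNA genes, against 7445 of 18207 protein-coding genes, reached 1 mature copy in all 3 libraries. The number of genes at 100 copies or more was 65 in poly(A), 200 in RNase H and 120 in Ribo-Zero.

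Summed over all members, a cell held 55099 mature copies in poly(A), 165278 in RNase H and 84394 in Ribo-Zero. The RNase H sum was thus the highest of the 3, and the poly(A) sum the lowest. Protein-coding genes held 93.9% of these molecules in poly(A), 93.9% in RNase H and 94.1% in Ribo-Zero. The lncRNA genes held 1.32% in poly(A), 1.51% in RNase H and 1.14% in Ribo-Zero, and pseudogenes 0.581% in poly(A), 0.632% in RNase H and 0.592% in Ribo-Zero. These shares differed far less between libraries than the sums did. The pool was concentrated: the 100 most abundant genes held 24.7% of the mature copies in poly(A), 24.3% in RNase H and 32.3% in Ribo-Zero.

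**Figure D1:**
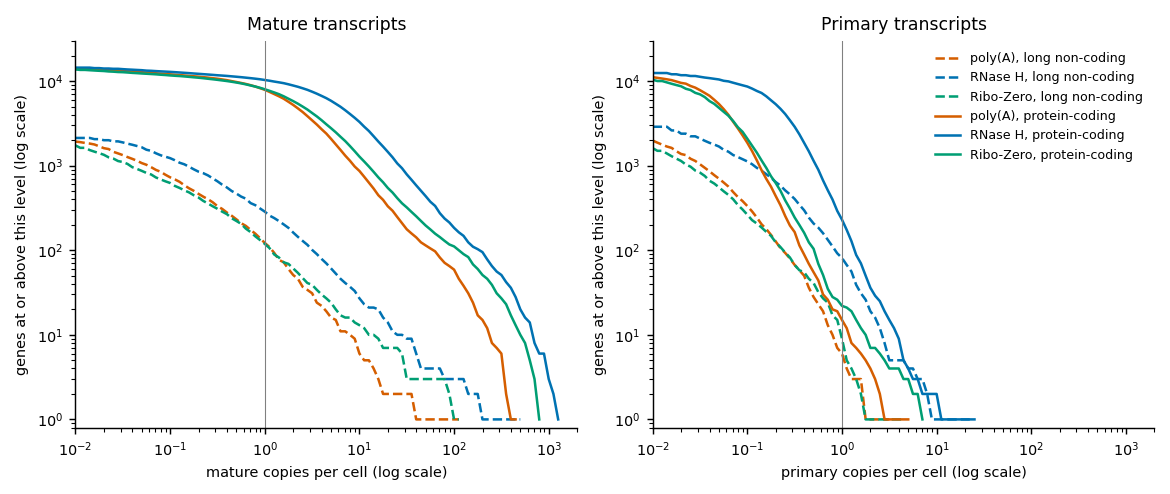
Number of genes (vertical axis, log scale) at or above a given number of copies per cell (horizontal axis, log scale), for mature transcripts on the left and primary transcripts on the right, in each total library; solid lines are protein-coding and dashed lines long non-coding genes, and the grey line is at 1 copy. The lines of the RNase H library lie to the right of the others, and few genes reach 1 primary copy.

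The 10 most abundant mRNAs by the median of the libraries encoded ribosomal proteins, a ribosome-associated scaffold, a translation elongation factor and a glycolytic enzyme. EEF1A1 (chromosome 6), the factor that brings aminoacyl-tRNA to the ribosome, had 326 mature copies in poly(A), 1317 in RNase H and 791 in Ribo-Zero. RPS27 (chromosome 1) and RPS2 (chromosome 16) encode proteins of the small ribosomal subunit. RPS27 had 365 copies in poly(A), 734 in RNase H and 797 in Ribo-Zero, and RPS2 had 479.9 copies in poly(A), 1248 in RNase H and 729 in Ribo-Zero. The libraries did not rank these genes alike, since RPS2 led in poly(A), EEF1A1 in RNase H and RPS27 in Ribo-Zero. GAPDH (chromosome 12), the glycolytic glyceraldehyde-3-phosphate dehydrogenase, had 291 copies in poly(A), 689 in RNase H and 665 in Ribo-Zero. RACK1 (chromosome 5), that scaffold, had 157 copies in poly(A), 533 in RNase H and 524 in Ribo-Zero. The other members of the highest 10 were the ribosomal protein genes RPL26, RPS10, RPL4, RPS24 and RPL17, between 247 and 335 copies in poly(A), between 647 and 993 in RNase H and between 547 and 648 in Ribo-Zero. Ribosomal protein genes and EEF1A1 have many processed pseudogenes, so how the authors' counting split near-identical reads is uncertain.

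Among the 10 highest named lncRNA genes by the median of the libraries, 8 were in the list of hosts of small nucleolar RNAs (snoRNAs, which guide the modification of ribosomal RNA and are cut from the hosts' introns). SNHG3 had 12.9 mature copies in poly(A), 199 in RNase H and 94.4 in Ribo-Zero, and SNHG29 had 36.8 copies in poly(A), 133 in RNase H and 83.7 in Ribo-Zero. GAS5, a host whose spliced RNA is known to be unstable, had 15.0 copies in poly(A), 40.4 in RNase H and 28.7 in Ribo-Zero. The hosts SNHG16, SNHG5, SNHG1, SNHG8 and ZFAS1 were others, and DANCR, outside that list, is known to hold a snoRNA as well. LINC00910 completed the 10. GUSBP9, the highest named pseudogene by the same median, had 2.01 copies in poly(A), 17.7 in RNase H and 6.14 in Ribo-Zero, and a pseudogene's reads may belong to its parent gene. 1 pseudogene with no gene symbol exceeded 100 copies in each library.

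The median over a gene list placed the functions of the cell in nearly the same order in each library, with Spearman correlations across 26 list medians of 0.978 between poly(A) and RNase H, 0.992 between poly(A) and Ribo-Zero and 0.977 between RNase H and Ribo-Zero, which share genes and list choice. Cytosolic ribosomal protein genes came first in each, with a median of 103 mature copies in poly(A), 241 in RNase H and 187 in Ribo-Zero. Their 81 members together held 17.2% of all mature copies in poly(A), 16.2% in RNase H and 22.2% in Ribo-Zero. At 1 copy or more in all libraries were 79 of 81, and the lowest detected, the muscle paralog RPL3L, had 0.0340 copies in poly(A), 0.301 in RNase H and 0.0145 in Ribo-Zero.

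Actin and tubulin genes, the building blocks of the cytoskeleton, had a median of 41.0 copies in poly(A), 115 in RNase H and 60.6 in Ribo-Zero. TUBA1B, an alpha-tubulin, led with 185 copies in poly(A), 440.0 in RNase H and 364 in Ribo-Zero, and the beta-actin gene ACTB had 82.9 copies in poly(A), 432 in RNase H and 137 in Ribo-Zero. Both proteins polymerise into filaments. The lowest of the 13 was TUBB2A, with 6.05 copies in poly(A), 13.5 in RNase H and 9.25 in Ribo-Zero. Glycolytic enzymes had a median of 30.1 copies in poly(A), 74.2 in RNase H and 56.1 in Ribo-Zero. After GAPDH came ENO1 (enolase) with 120.3 copies in poly(A), 339 in RNase H and 313 in Ribo-Zero and PKM (pyruvate kinase) with 95.8 copies in poly(A), 242 in RNase H and 160.5 in Ribo-Zero. The lowest was ALDOC, an aldolase isozyme of brain, with 0.213 copies in poly(A), 0.353 in RNase H and 0.274 in Ribo-Zero.

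Protein folding factors were measured in a pair of lists. The 8 subunits of the TRiC chaperonin, which folds actin and tubulin, had a median of 26.7 copies in poly(A), 100.0 in RNase H and 53.5 in Ribo-Zero. By the median of the libraries CCT6A was lowest, with 15.1 copies in poly(A), 46.6 in RNase H and 23.8 in Ribo-Zero, and CCT5 highest, with 54.4 copies in poly(A), 185 in RNase H and 106 in Ribo-Zero. Heat shock chaperones had a median of 23.8 copies in poly(A), 80.4 in RNase H and 31.8 in Ribo-Zero and were led by the constitutive HSPA8, with 117 copies in poly(A), 403 in RNase H and 267 in Ribo-Zero. At the other end the stress-induced co-chaperone DNAJB1 had 5.12 copies in poly(A), 16.6 in RNase H and 6.10 in Ribo-Zero.

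Several lists hold genes that bind, splice or translate RNA. HNRNP genes, whose proteins coat new transcripts, had a median of 21.1 copies in poly(A), 71.4 in RNase H and 22.9 in Ribo-Zero, led by HNRNPA1 with 96.9 copies in poly(A), 339 in RNase H and 143 in Ribo-Zero. SR proteins and CLK kinases, activators of splicing and the kinases that control them, had 10.9 in poly(A), 36.9 in RNase H and 15.6 in Ribo-Zero. By the median of the libraries SRSF1 led this list, with 18.7 copies in poly(A), 62.0 in RNase H and 43.4 in Ribo-Zero, and CLK2 was lowest, with 1.80 copies in poly(A), 4.63 in RNase H and 1.73 in Ribo-Zero. The core spliceosome had a median of 10.9 copies in poly(A), 31.4 in RNase H and 13.7 in Ribo-Zero, and its Sm protein gene SNRPB had 35.8 copies in poly(A), 61.8 in RNase H and 80.4 in Ribo-Zero. Translation factors had 9.73 in poly(A), 24.0 in RNase H and 13.2 in Ribo-Zero, and the elongation factor EEF2 came second to EEF1A1 by the median of the libraries, with 102 copies in poly(A), 394 in RNase H and 198 in Ribo-Zero. Aminoacyl-tRNA synthetases, which charge tRNAs, had a median of 10.3 copies in poly(A), 33.8 in RNase H and 15.4 in Ribo-Zero, with TARS1 highest at 24.6 copies in poly(A), 84.7 in RNase H and 45.2 in Ribo-Zero.

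Further lists hold subunits of large protein complexes. Proteasome subunits had a median of 11.1 copies in poly(A), 29.1 in RNase H and 18.1 in Ribo-Zero, nuclear-encoded subunits of oxidative phosphorylation (OXPHOS) had 12.1 in poly(A), 25.5 in RNase H and 20.1 in Ribo-Zero, and mitochondrial ribosomal proteins had 5.53 in poly(A), 14.7 in RNase H and 7.81 in Ribo-Zero. ATP5F1B, the catalytic beta subunit of ATP synthase, was the highest OXPHOS gene by the median of the libraries, with 63.1 copies in poly(A), 167 in RNase H and 153 in Ribo-Zero. PSMD8, a subunit of the proteasome's regulatory cap, had 51.7 copies in poly(A), 177 in RNase H and 90.1 in Ribo-Zero. MRPL3 of the large mitochondrial ribosomal subunit had 15.6 copies in poly(A), 44.6 in RNase H and 30.9 in Ribo-Zero. The 6 MCM genes, subunits of the replicative helicase, were led by MCM7 with 30.9 copies in poly(A), 81.4 in RNase H and 61.5 in Ribo-Zero. MCM6 was lowest by the median of the libraries, with 6.54 copies in poly(A), 20.9 in RNase H and 7.31 in Ribo-Zero. RNA polymerase II subunits had a median of 9.32 copies in poly(A), 26 in RNase H and 13.5 in Ribo-Zero, and POLR2I was highest by the median of the libraries, with 13.2 copies in poly(A), 39.7 in RNase H and 31.9 in Ribo-Zero.

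**Figure D2:**
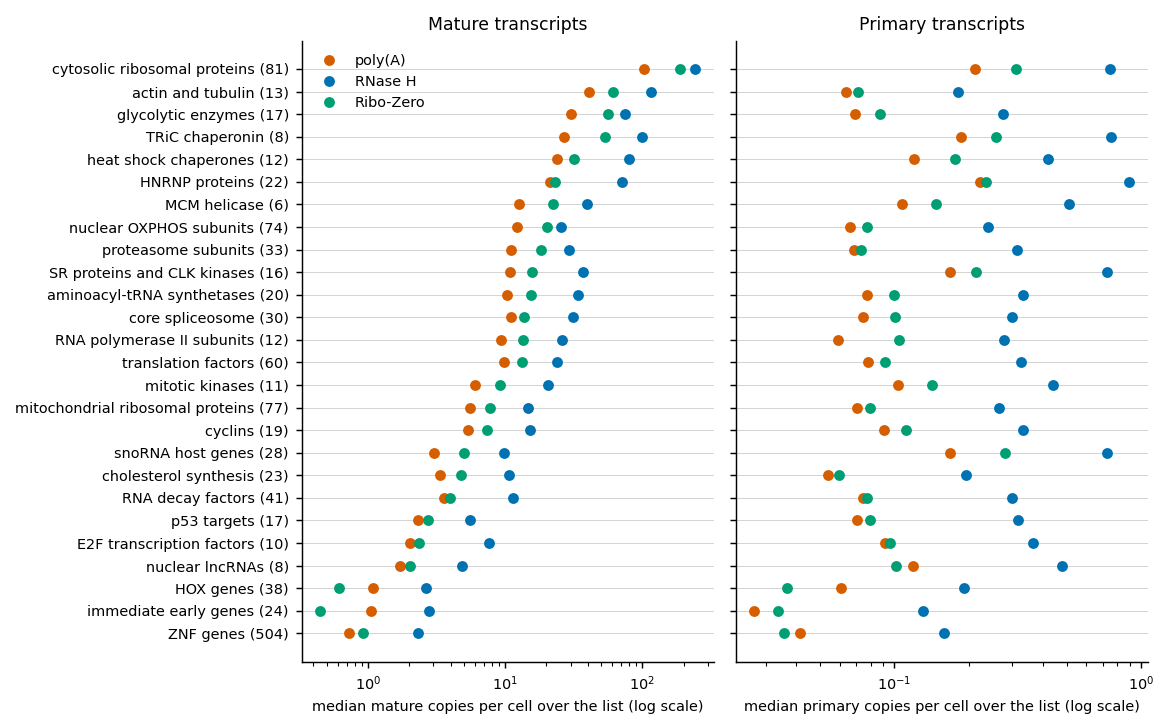
Median mature (left) and primary (right) copies per cell over the measured members of 26 gene lists, on log scales, in the poly(A), RNase H and Ribo-Zero libraries; the number of members stands in brackets. Mature medians run from 103, 241 and 187 copies for ribosomal proteins (poly(A), RNase H, Ribo-Zero) down to 0.722 in poly(A) and 2.33 in RNase H for ZNF genes and 0.449 in Ribo-Zero for immediate early genes, while primary medians differ less between lists.

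The next lists had lower medians than those above, apart from mitochondrial ribosomal proteins. All of these medians exceeded that of protein-coding genes listed above 0, which was 1.15 copies in poly(A), 3.26 in RNase H and 1.16 in Ribo-Zero. Cyclins had a median of 5.33 copies in poly(A), 15.1 in RNase H and 7.43 in Ribo-Zero, with CCNG1 at 23.3 in poly(A), 73.0 in RNase H and 50.9 in Ribo-Zero and the mitotic cyclin CCNB1 at 17.7 in poly(A), 48.3 in RNase H and 35.3 in Ribo-Zero. Mitotic kinases had a median of 6.07 copies in poly(A), 20.6 in RNase H and 9.24 in Ribo-Zero, led, by the median of the libraries, by CDK1, the kinase that drives entry into mitosis, with 12.4 copies in poly(A), 29.2 in RNase H and 24.9 in Ribo-Zero. RNA decay factors had 3.58 in poly(A), 11.5 in RNase H and 3.97 in Ribo-Zero, with CNOT1, the scaffold of the CCR4-NOT deadenylase, at 14.3 in poly(A), 64.1 in RNase H and 19.1 in Ribo-Zero. Cholesterol synthesis genes had a median of 3.32 copies in poly(A), 10.7 in RNase H and 4.76 in Ribo-Zero, and p53 targets had 2.30 in poly(A), 5.58 in RNase H and 2.72 in Ribo-Zero. The p53 target with the most copies was PMAIP1, which encodes the cell death protein NOXA, with 25.3 copies in poly(A), 72.1 in RNase H and 39.8 in Ribo-Zero.

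Lists of transcription factors, immediate early genes and non-coding genes had lower medians than the lists of protein complexes and of translation above. E2F genes, snoRNA hosts and nuclear lncRNAs still exceeded the median protein-coding gene listed above 0 in each library. E2F genes, regulators of entry into S phase, had a median of 2.02 copies in poly(A), 7.67 in RNase H and 2.36 in Ribo-Zero, and E2F1 had 3.89 in poly(A), 8.77 in RNase H and 5.49 in Ribo-Zero. Immediate early genes, known for brief bursts of transcription and short-lived mRNAs, had 1.05 in poly(A), 2.80 in RNase H and 0.449 in Ribo-Zero. MCL1, a survival factor, led that list with 6.49 copies in poly(A), 17.1 in RNase H and 10.7 in Ribo-Zero, MYC had 4.56 in poly(A), 12.9 in RNase H and 4.78 in Ribo-Zero, and EGR2 was lowest with 0.0365 in poly(A), 0.0834 in RNase H and 0.00888 in Ribo-Zero. HOX genes, which set position along the body axis, had a median of 1.09 copies in poly(A), 2.65 in RNase H and 0.611 in Ribo-Zero, with HOXA9 highest at 11 in poly(A), 31.5 in RNase H and 12.2 in Ribo-Zero. The 504 zinc finger genes with ZNF symbols had a median of 0.722 copies in poly(A), 2.33 in RNase H and 0.915 in Ribo-Zero, although 171 of them reached 1 copy in all libraries and ZNF711 had 16.1 copies in poly(A), 66.6 in RNase H and 35.0 in Ribo-Zero. Of the list of nuclear lncRNAs, 8 of 12 were members, with a median of 1.72 copies in poly(A), 4.84 in RNase H and 2.02 in Ribo-Zero. DANCR, whose RNA is known also from the cytoplasm, led them with 9.01 copies in poly(A), 22.9 in RNase H and 16.6 in Ribo-Zero. The 28 snoRNA hosts had a median of 3.01 copies in poly(A), 9.81 in RNase H and 5.03 in Ribo-Zero.

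Some list members are uncertain because identical or near-identical loci share their reads. For PRPF31, CNOT3 and VARS1, 6, 4 and 1 other entries had the same mature copies within 0.1% in all libraries, and their own values (PRPF31 0.751 in poly(A), 1.54 in RNase H and 0.854 in Ribo-Zero) were low for their lists. RPS18 shared its values with 3 other entries, and ACTG1, RPL36A, RPL7A, TPI1 and H2BC18 with 1 each. Over all members, 1597 entries above 0 had the same copies as another entry, and 759 of these had no match in the annotation used for names.

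Primary transcripts were scarce. A cell held 1018 primary copies in poly(A), 3874 in RNase H and 1029 in Ribo-Zero in all, so that there were 54.1 mature copies for each primary copy in poly(A), 42.7 in RNase H and 82.0 in Ribo-Zero. At least 1 primary copy per cell was listed for 25 genes in poly(A), 358 in RNase H and 38 in Ribo-Zero, and for 17 genes in all 3 libraries. The median lncRNA gene above 0 had 0.00905 primary copies in poly(A), 0.0285 in RNase H and 0.00704 in Ribo-Zero, and the median protein-coding gene had 0.0378 in poly(A), 0.142 in RNase H and 0.0337 in Ribo-Zero. The lncRNA genes took a larger share of the primary than of the mature pool: lncRNA genes held 14.5% of primary copies in poly(A), 14% in RNase H and 13.0% in Ribo-Zero, and protein-coding genes 75.9% in poly(A), 77.1% in RNase H and 78.7% in Ribo-Zero. Primary copies exceeded mature copies for 4500 entries in poly(A), 5314 in RNase H and 3596 in Ribo-Zero. Most of these had no mature copies, and few of those without mature copies reached 0.1 primary copies, namely 163 entries in poly(A), 649 in RNase H and 126 in Ribo-Zero.

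The protein-coding genes with the most primary copies by the median of the libraries were of mixed kinds. The histone gene H2BC12 (chromosome 6) had 1.76 primary copies in poly(A), 10.3 in RNase H and 7.88 in Ribo-Zero. The annotation used for names gives it a span of 381 bases and a coding length of 378, which leaves no room for an intron. Its primary value rests on the authors' models and need not be a splicing precursor. SAT1 (chromosome X), which encodes a polyamine-catabolising acetyltransferase whose splicing is regulated, had 2.46 primary copies in poly(A), 4.97 in RNase H and 4.09 in Ribo-Zero, and PMAIP1 (chromosome 18) had 1.46 in poly(A), 5.6 in RNase H and 2.85 in Ribo-Zero. AL035425.2 (chromosome X), a clone-named entry, had 5.40 primary copies in poly(A), 25.2 in RNase H and 6.36 in Ribo-Zero, the most of these 10 in poly(A) and in RNase H. RBM15 (chromosome 1), an RNA-binding protein of the m6A methylation machinery, had 1.02 primary copies in poly(A), 4.09 in RNase H and 2.29 in Ribo-Zero, and HOXD10 (chromosome 2) had 1.95 in poly(A), 6.49 in RNase H and 1.48 in Ribo-Zero. The mitochondrial ribosomal protein gene MRPS34 (chromosome 16) had 2.02 primary copies in poly(A), 4.14 in RNase H and 1.82 in Ribo-Zero. INAFM2 and BBS10 completed the 10 together with H2BC11; INAFM2 had more primary than mature copies in each library, with 2.59 primary copies in poly(A), 3.77 in RNase H and 2.61 in Ribo-Zero and 0.360 mature copies in poly(A), 0 in RNase H and 0.287 in Ribo-Zero. A primary value is read coverage assigned to the unspliced isoform, so that for genes with overlapping or alternative intronless transcripts it need not be a splicing precursor.

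Among lncRNA genes TUG1 (chromosome 22), known for retained introns and nuclear RNA, had 1.65 primary copies in poly(A), 7.08 in RNase H and 1.13 in Ribo-Zero beside 6.12 mature copies in poly(A), 21.1 in RNase H and 4.89 in Ribo-Zero. SNHG1 had 0.542 primary copies in poly(A), 2.29 in RNase H and 1.49 in Ribo-Zero, and MIR17HG, the host of the miR-17 cluster of microRNAs, had 0.471 in poly(A), 1.49 in RNase H and 0.949 in Ribo-Zero. For TMPO-AS1 the primary form exceeded the mature form in each library, with 1.14 primary copies in poly(A), 2.81 in RNase H and 0.898 in Ribo-Zero and 0.231 mature copies in poly(A), 0.470 in RNase H and 0.167 in Ribo-Zero. Of the named pseudogenes SDHAP3 was highest by the median of the libraries, with 0.637 primary copies in poly(A), 2.81 in RNase H and 0.654 in Ribo-Zero.

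Lists differed less in primary than in mature copies. Ribosomal protein genes had a median of 0.211 primary copies in poly(A), 0.750 in RNase H and 0.310 in Ribo-Zero, close to the 0.223 in poly(A), 0.893 in RNase H and 0.234 in Ribo-Zero of HNRNP genes, whose mature median was several-fold lower. The TRiC chaperonin (0.186 in poly(A), 0.758 in RNase H and 0.258 in Ribo-Zero), SR proteins and CLK kinases (0.169 in poly(A), 0.731 in RNase H and 0.213 in Ribo-Zero) and snoRNA hosts (0.167 in poly(A), 0.726 in RNase H and 0.282 in Ribo-Zero) had high primary medians too. Mitochondrial ribosomal protein genes had 0.0707 in poly(A), 0.266 in RNase H and 0.0794 in Ribo-Zero, and immediate early genes were lowest of the 26 lists in each library, with 0.0270 in poly(A), 0.131 in RNase H and 0.0337 in Ribo-Zero.

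The primary share of a gene is its primary copies as a percent of primary plus mature copies, and was taken over the 7940 genes with at least 1 mature copy in all libraries. Its median was 1.84% in poly(A), 2.44% in RNase H and 1.36% in Ribo-Zero. In lncRNA genes of this set (102) the median was 5.54% in poly(A), 7.04% in RNase H and 4.40% in Ribo-Zero, against 1.85% in poly(A), 2.45% in RNase H and 1.36% in Ribo-Zero in the 7445 protein-coding genes. In protein-coding genes the share was lower the more mature copies there were: 2.12% in poly(A), 2.85% in RNase H and 1.60% in Ribo-Zero in the 6107 genes with a median of 1 to 10 copies, 0.796% in poly(A), 1.06% in RNase H and 0.599% in Ribo-Zero in 1227 genes with 10 to 100, and 0.196% in poly(A), 0.228% in RNase H and 0.135% in Ribo-Zero in 111 genes with 100 or more. Mature copies are part of the share, so this order is a description. Primary copies themselves had medians of 0.0538 in poly(A), 0.222 in RNase H and 0.0514 in Ribo-Zero in the lowest and 0.219 in poly(A), 0.703 in RNase H and 0.306 in Ribo-Zero in the highest of these classes.

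By the span of the gene on the chromosome, genes under 5 kb were lowest. These 453 coding genes had a median share of 1.17% in poly(A), 1.33% in RNase H and 0.981% in Ribo-Zero, and the 1366 coding genes of 100 kb or more had 1.99% in poly(A), 2.62% in RNase H and 1.28% in Ribo-Zero. In Ribo-Zero genes of 5 to 20 kb were highest, with 1.44%. Mature copies, part of the share, had medians under 5 kb of 4.58 in poly(A), 10.9 in RNase H and 6.25 in Ribo-Zero. At 100 kb or more they were 2.24, 7.97 and 2.77 in the same order. Primary copies had medians of 0.0802, 0.213 and 0.0854 under 5 kb and 0.0465, 0.222 and 0.0376 at 100 kb or more. By list the share was again taken over members with at least 1 mature copy in all libraries, only 11 HOX genes and 7 immediate early genes. HOX genes had the highest medians in poly(A) and Ribo-Zero, with 6.28% in poly(A), 3.45% in RNase H and 6.61% in Ribo-Zero. Immediate early genes had the highest in RNase H, with 4.14% in poly(A), 8.02% in RNase H and 2.88% in Ribo-Zero. SnoRNA hosts had 5.78% in poly(A), 7.48% in RNase H and 4.95% in Ribo-Zero, E2F genes 4.60% in poly(A), 5.69% in RNase H and 3.47% in Ribo-Zero and ZNF genes 3.99% in poly(A), 5.08% in RNase H and 3.10% in Ribo-Zero. Ribosomal protein genes were lowest, with 0.187% in poly(A), 0.273% in RNase H and 0.170% in Ribo-Zero.

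Among genes with at least 1 mature copy in each library, those in which a large part of the RNA was unspliced were few. This filter leaves out genes with little mature RNA, so it does not count genes that are mostly unspliced. INAFM2 fell outside it, with a share of 87.8% in poly(A), 100% in RNase H and 90.1% in Ribo-Zero. So did TMPO-AS1, with 83.1% in poly(A), 85.7% in RNase H and 84.3% in Ribo-Zero. Of 1107 named genes with at least 0.5 primary copies in 1 library and 1 mature copy in each, none had a median share of 50% or more, and 9 had 25% or more. By the median of the libraries RBM15 led, with 46.7% in poly(A), 35.1% in RNase H and 57.3% in Ribo-Zero, followed by HOXD10 with 42.0% in poly(A), 47.6% in RNase H and 40.7% in Ribo-Zero. CDKN2B, an inhibitor of the cyclin D kinases, had 29.9% in poly(A), 28.6% in RNase H and 32.1% in Ribo-Zero, and SAYSD1 had 29.8% in poly(A), 29.8% in RNase H and 28.1% in Ribo-Zero. The lncRNA gene GATA2-AS1, antisense to the blood transcription factor gene GATA2, had 25.9% in poly(A), 34.2% in RNase H and 28.0% in Ribo-Zero. The others among the 10 highest were NUDT19-DT, AL035425.2, CHPF2, PPP1R35 and the pseudogene RRP7BP, between 19.7 and 31.1%. In RBM15 the libraries ranged from 35.1 to 57.3%, while SAYSD1 stayed between 28.1 and 29.8%.

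**Figure D3:**
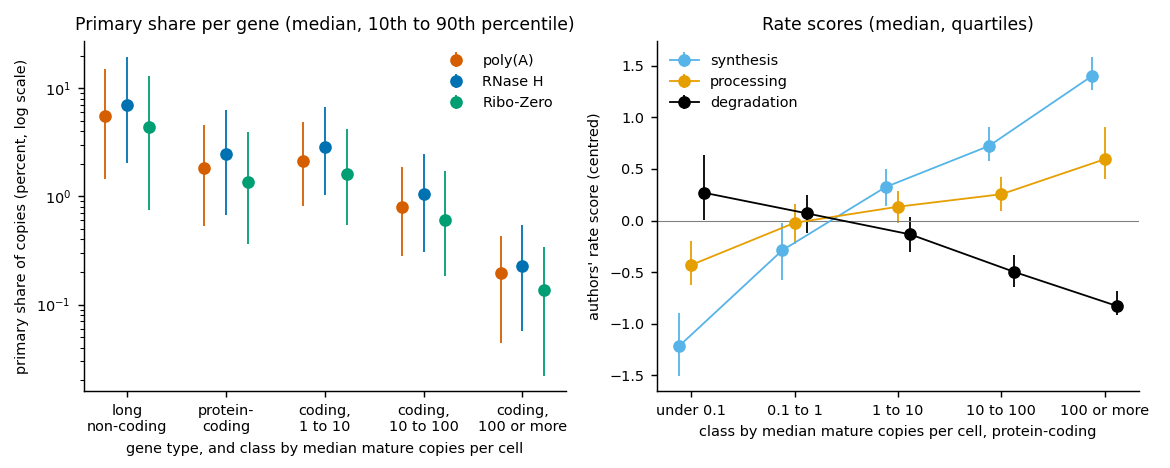
Left, primary share of the copies of a gene in percent (log scale), as the median with lines from the 10th to the 90th percentile over genes, for long non-coding and protein-coding genes and for protein-coding genes by class of median mature copies, in each total library. Right, centred scores deposited by the authors for the rates of synthesis, of processing and of degradation in protein-coding genes by the same kind of class (median, lines for the quartiles over genes): synthesis runs from -1.22 under 0.1 copies to 1.4 at 100 or more, and degradation from 0.27 to -0.83.

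The libraries were then compared gene by gene. Across all 38500 members the Spearman correlation of mature copies was 0.938 between poly(A) and RNase H, 0.939 between poly(A) and Ribo-Zero and 0.935 between RNase H and Ribo-Zero. These are correlations across genes, which are not replicates, and many of the genes are at 0 in each library. Ratios were taken over the 11411 genes with at least 1 mature copy in 1 library, with 0.1 added to each value. Of these genes 8473 had at least 1 copy in poly(A), 11394 in RNase H and 8576 in Ribo-Zero, so some entered through RNase H alone. The median log2 ratio was -1.49 for poly(A) over RNase H, -0.30 for poly(A) over Ribo-Zero and 1.2 for RNase H over Ribo-Zero. In TPM the same medians were 0.52, 0.85 and 0.33: poly(A) was lower than either depleted library in copies and higher in TPM. The direction of a typical gene between libraries thus depended on the unit, and single genes are described relative to the median ratio where that matters. Relative to it, 97.9% of genes lay within 2-fold between poly(A) and RNase H, 92.0% between poly(A) and Ribo-Zero and 88.2% between RNase H and Ribo-Zero.

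For primary transcripts the correlations between libraries over all 38500 members were slightly lower than for mature copies. They were 0.910 for poly(A) and RNase H, 0.910 for poly(A) and Ribo-Zero and 0.905 for RNase H and Ribo-Zero. Over the 1505 genes with at least 0.5 primary copies in 1 library (0.01 added), the median log2 ratio was -2.01 for poly(A) over RNase H, -0.14 for poly(A) over Ribo-Zero and 1.83 for RNase H over Ribo-Zero. Of these genes 98 had at least 0.5 primary copies in poly(A), 1503 in RNase H and 160 in Ribo-Zero. Most thus passed the filter through RNase H alone, so the ratios with RNase H are partly set by the filter. Across these 1505 genes the Spearman correlation was 0.779, 0.687 and 0.585 for the same pairs. These values cover a filtered set and do not compare with those over all members. Primary TPM had medians of -0.20, 0.61 and 0.75. Primary values are mostly below 1 copy, and how much of their spread is counting error is unknown without the depth.

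**Figure D4:**
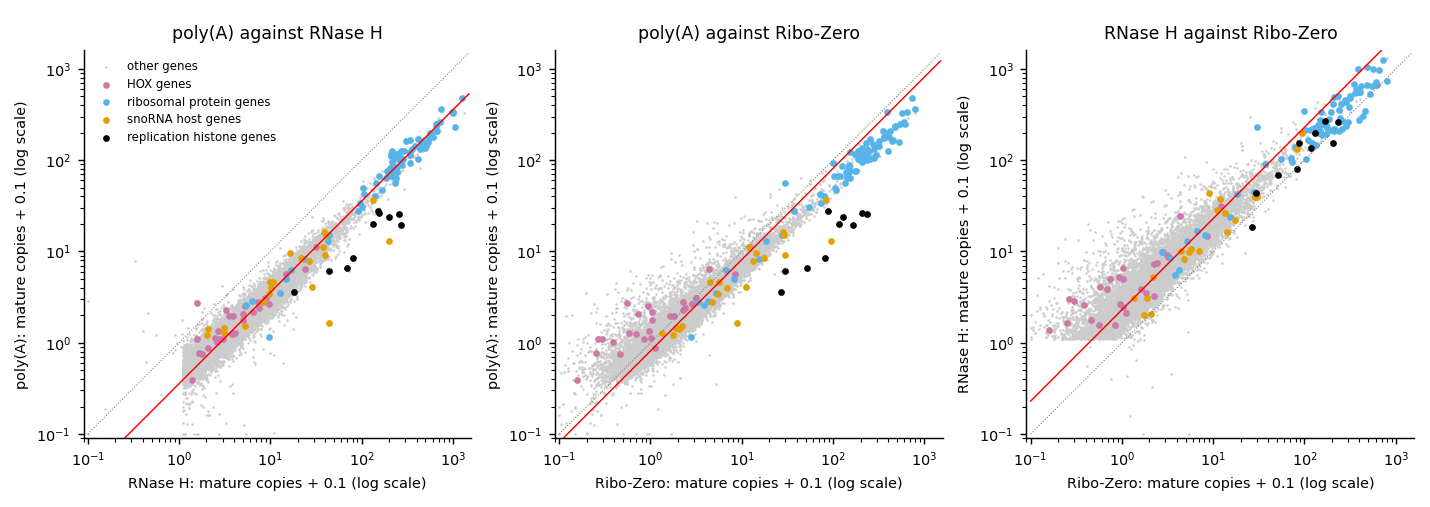
Mature copies per cell plus 0.1 (log scales) in pairs of total libraries, for genes with at least 1 copy in 1 library; each dot is a gene, coloured for HOX, ribosomal protein, snoRNA host and replication histone genes, the red line is the median ratio and the dotted line marks equal values. Replication histone genes lie mostly below the red line in both poly(A) panels, and HOX genes mostly above it where Ribo-Zero is on the horizontal axis.

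The poly(A) library was at least 2-fold lower than both depleted libraries for 339 of 11411 genes (2.97%) and at least 2-fold higher for 2 (0.0175%). Of the 11411 genes 8473 had at least 1 copy in poly(A) and 11394 in RNase H. Genes could thus pass the level filter through a depleted library alone, so these counts are not on an equal footing. Relative to the median ratios, which differ from 0, 34 genes (0.298%) were lower and 22 (0.193%) higher. Replication-dependent histone genes filled 7 of the 10 lowest places. Their mRNAs are known to end in a stem-loop in place of a poly(A) tail, and most of these genes have no introns, so that the 12 present here are those with an intron in the authors' models. All 10 of them that passed the level filter were at least 2-fold lower in poly(A), and 8 relative to the median. Most histone genes have near-identical copies, and the split of their reads is uncertain.

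H2BC11 had 8.48 mature copies in poly(A), 80.9 in RNase H and 81.6 in Ribo-Zero, log2 ratios of -3.24 and -3.25 for poly(A) over RNase H and over Ribo-Zero. H2BC4 had 25.8 copies in poly(A), 259.7 in RNase H and 234 in Ribo-Zero, and H2AC6 had 19.4 in poly(A), 271 in RNase H and 167 in Ribo-Zero. In each of these genes the poly(A) value was several-fold under both depleted values, which lay within 2-fold of each other. H3C4 had 6.45 copies in poly(A), 69.1 in RNase H and 51.3 in Ribo-Zero, H4C8 19.7 in poly(A), 135 in RNase H and 117 in Ribo-Zero, H2BC5 26.3 in poly(A), 156 in RNase H and 205 in Ribo-Zero and H2BC18 23.7 in poly(A), 198 in RNase H and 129.8 in Ribo-Zero. The core histones H2A, H2B, H3 and H4, around which DNA is wound, were thus all represented. Summed over the 12 genes, mature histone copies were 167 in poly(A), 1384 in RNase H and 1129 in Ribo-Zero, and primary copies 3.23 in poly(A), 18.5 in RNase H and 15.4 in Ribo-Zero.

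Of 21 compared snoRNA hosts 6 were lower in poly(A), against the 2.97% above, and 3 relative to the median. SNHG3 had a log2 ratio of poly(A) of -3.94 over RNase H and -2.86 over Ribo-Zero, and its values in copies are given above. SNHG20 had 1.56 copies in poly(A), 43.9 in RNase H and 8.78 in Ribo-Zero. Of 79 compared ribosomal protein genes 32 were lower as deposited, but none relative to the median. ABCF1, a translation regulator, had 0.631 copies in poly(A), 10.8 in RNase H and 4.33 in Ribo-Zero. It lies in the MHC region of chromosome 6, which has alternate haplotypes, so its counting is uncertain.

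The 10 genes highest in poly(A) against both depleted libraries held several entries that share exons with a neighbour. ATP6V1G2-DDX39B, a read-through entry, had 7.66 copies in poly(A), 0.226 in RNase H and 2.05 in Ribo-Zero and was higher without any scaling. DNAJC25-GNG10 and HNRNPUL2-BSCL2 are read-through entries as well, with 1.13 copies in poly(A), 0.806 in RNase H and 0.344 in Ribo-Zero and 1.35 in poly(A), 1.14 in RNase H and 0.355 in Ribo-Zero. HOXC4, whose transcripts overlap those of neighbouring HOX genes, had 2.62 copies in poly(A), 1.47 in RNase H and 0.458 in Ribo-Zero. NDUFA3, a complex I subunit, had 2.09 copies in poly(A), 1.71 in RNase H and 0.151 in Ribo-Zero, close between poly(A) and RNase H and low in Ribo-Zero. POLR2J2, a near-copy of an RNA polymerase II subunit gene, had 1.13 copies in poly(A), 0.989 in RNase H and 0.357 in Ribo-Zero, and BTF3L4P2, a processed pseudogene, had 3.8 in poly(A), 3.77 in RNase H and 0.304 in Ribo-Zero. CDK11B, VARS1 and RRBP1 completed the 10 but were not 2-fold higher relative to the median in both ratios.

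Primary transcripts at least 2-fold lower in poly(A) than in both depleted libraries numbered 70 of 1505 (4.65%), and none was higher (0%). Of the 1505 genes 98 had at least 0.5 primary copies in poly(A) and 1503 in RNase H. Genes could thus pass the filter through RNase H alone, so the counts of lower and higher genes are not on an equal footing. Relative to the median ratios 7 (0.465%) were lower and 10 (0.664%) higher. Histone genes were again among the lowest: H2BC11 had 0.575 primary copies in poly(A), 3.85 in RNase H and 5.21 in Ribo-Zero, H3C4 0.362 in poly(A), 2.34 in RNase H and 1.69 in Ribo-Zero and H2BC12 1.76 in poly(A), 10.3 in RNase H and 7.88 in Ribo-Zero. The primary value of H2BC12 need not be a splicing precursor, as described above. TUBA1B had 0.143 primary copies in poly(A), 0.583 in RNase H and 0.586 in Ribo-Zero, nearly equal in the depleted libraries, and FOXD1, a kidney stroma transcription factor, had 0.0635 in poly(A), 0.557 in RNase H and 0.329 in Ribo-Zero. H3-7 and the pseudogene UBE2CP5 were listed at 0 in poly(A), with 1.89 and 2.20 copies in RNase H and 0.0834 and 0.102 in Ribo-Zero. The lncRNA genes SNHG8 and CLASP1-AS1 and the read-through entry PMF1-BGLAP were the others. Relative to the median, PMF1-BGLAP, UBE2CP5, H3-7 and CLASP1-AS1 of these 10 were lower. At the high end PCBD2 had 1.2 primary copies in poly(A), 1.08 in RNase H and 0.0894 in Ribo-Zero and was low in Ribo-Zero. HOXB6 had 0.510 primary copies in poly(A), 0.574 in RNase H and 0.180 in Ribo-Zero and RPS2 0.609 in poly(A), 0.955 in RNase H and 0.295 in Ribo-Zero.

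Each depleted library was also set against both others, a comparison chosen after the data were seen. Relative to the median ratios the Ribo-Zero library had the most departures. There 692 of 11411 genes (6.06%) were at least 2-fold lower and 25 (0.219%) higher. Of the 11411 genes 11394 had at least 1 copy in RNase H and 8576 in Ribo-Zero. Genes could thus pass the level filter through RNase H alone, so the counts of lower and higher genes in Ribo-Zero are not on an equal footing. The RNase H library was lower for 60 (0.526%) and higher for 62 (0.543%). Genes low in Ribo-Zero with at least 10 copies in 1 library included NFIC, a transcription factor of the nuclear factor I family, with 3.50 copies in poly(A), 17.3 in RNase H and 0.342 in Ribo-Zero, and CCNK, the cyclin partner of the CDK12 kinase, with 5.40 in poly(A), 21.6 in RNase H and 0.847 in Ribo-Zero. PRAF2 had 6.02 copies in poly(A), 14.8 in RNase H and 0.501 in Ribo-Zero, the membrane traffic GTPase gene RAB11B 3.86 in poly(A), 10.1 in RNase H and 0.471 in Ribo-Zero, and ATXN2L, a stress granule protein, 9.48 in poly(A), 39.8 in RNase H and 1.59 in Ribo-Zero. The NPIPB genes of chromosome 16 (NPIPB12, NPIPB13, NPIPB3, NPIPB4) were low in Ribo-Zero too, but are near-copies of each other. All genes named so far as low in Ribo-Zero reached 10 copies in RNase H alone. Among list members POLR2A, the largest subunit of RNA polymerase II, had 8.19 copies in poly(A), 40.5 in RNase H and 1.57 in Ribo-Zero, and RPL28 was the 1 ribosomal protein gene low in Ribo-Zero with 56.2 in poly(A), 233 in RNase H and 29.9 in Ribo-Zero; both were picked out after their values were seen.

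By list, 11 of 28 compared HOX genes and 5 of 16 immediate early genes were lower in Ribo-Zero, against 6.06% of all compared genes. Their median log2 ratios of Ribo-Zero over poly(A) and over RNase H, relative to the median of all genes, were -0.83 and -0.53 for HOX genes and -0.45 and -0.30 for immediate early genes. Only 11 HOX genes and 7 immediate early genes had at least 1 copy in all libraries. The other compared members of these lists did not pass the level filter in each library, which limits both counts. Ribosomal protein genes leaned the other way: 8 of 79 were higher in Ribo-Zero, against 0.219% of all, with medians of 0.66 and 0.60. Among them were RPL41 with 161 copies in poly(A), 304 in RNase H and 438 in Ribo-Zero, RPL39 with 127 in poly(A), 273 in RNase H and 396 in Ribo-Zero and RPLP0 with 168 in poly(A), 342 in RNase H and 455 in Ribo-Zero. ENO1 was higher in Ribo-Zero as well. The exponent of the calibration curve was 0.928 in poly(A), 0.976 in RNase H and 1.04 in Ribo-Zero, so that abundant genes stand relatively higher in Ribo-Zero copies. In TPM 17 genes were higher in Ribo-Zero and 709 lower.

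The 10 genes highest in RNase H against both others were again taken among those with at least 10 copies in 1 library. All of them but PABPC1 and LARP1 reached 10 copies in RNase H alone, so they passed this filter through the library in which they were high. KMT2D, a histone H3 methyltransferase with a coding sequence of 16611 bases, had 3.06 copies in poly(A), 19.8 in RNase H and 0.984 in Ribo-Zero. TCF7L2, a transcription factor of the Wnt pathway, had 2.69 copies in poly(A), 16.4 in RNase H and 0.406 in Ribo-Zero. PABPC1, which binds poly(A) tails, had 48.0 in poly(A), 294 in RNase H and 25.3 in Ribo-Zero, and LARP1, which binds the start of ribosomal protein mRNAs, had 11.3 in poly(A), 69.4 in RNase H and 6.13 in Ribo-Zero. The 10 also held LSM14A, NFIB, TRIP12, CHD2, BRD2 and SNHG20. PSENEN and MBD3 were the genes with at least 10 copies that were low in RNase H, with 23.7 copies in poly(A), 28.8 in RNase H and 40.1 in Ribo-Zero for PSENEN, a subunit of gamma-secretase, and 6.86 in poly(A), 9.38 in RNase H and 12.3 in Ribo-Zero for MBD3, a subunit of a chromatin remodelling complex.

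GC content and length of the transcript, neither used to choose genes, had different medians in these groups; their part in the ratios was not tested. Taken from the longest annotated coding transcript, GC had a median of 47.6% over 10293 compared protein-coding genes (99.8% of 10313). It was 53.8% over the 585 coding genes low in Ribo-Zero and 63.5% over the 46 low in RNase H. The 24 coding genes high in RNase H had a median length of 5438 nucleotides, against 3570 over all compared and 1376 over the 16 high in Ribo-Zero. The share of genes low in Ribo-Zero was 11% at 60% GC or more (1304 genes) and 1.49% under 40% GC (1749 genes).

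Ratios were also grouped by GC and length across all compared coding genes. The median log2 ratio of poly(A) over RNase H, relative to the median of all genes, was 0.36 at 60% GC or more and -0.15 under 40%. That of RNase H over Ribo-Zero was -0.19 at 60% GC or more and -0.02 under 40%, so that in this ratio the GC-rich class as a whole was not lower in Ribo-Zero, although more of its genes passed the 2-fold mark. For transcripts of 8000 nucleotides or more (948 genes) poly(A) over RNase H was -0.36, and under 1000 nucleotides (330 genes) 0.27. For RNase H over Ribo-Zero it was 0.35 at 8000 nucleotides or more and -0.55 under 1000. In TPM the values were 0.38 and -0.16 and then -0.21 and -0.02 by GC, and -0.42 and 0.38 and then 0.35 and -0.45 by length, with the same signs as in copies. For poly(A) over Ribo-Zero the class at 60% GC or more had 0.20 in copies and 0.18 in TPM. The class under 40% had -0.18 in both, so against poly(A) the GC-rich class was lower in Ribo-Zero. By length, the shortest class had -0.31 in copies for poly(A) over Ribo-Zero but -0.08 in TPM. Copy number moved with length as well: the median gene had 10.2 mature copies under 1000 nucleotides and 1.91 at 8000 or more.

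**Figure D5:**
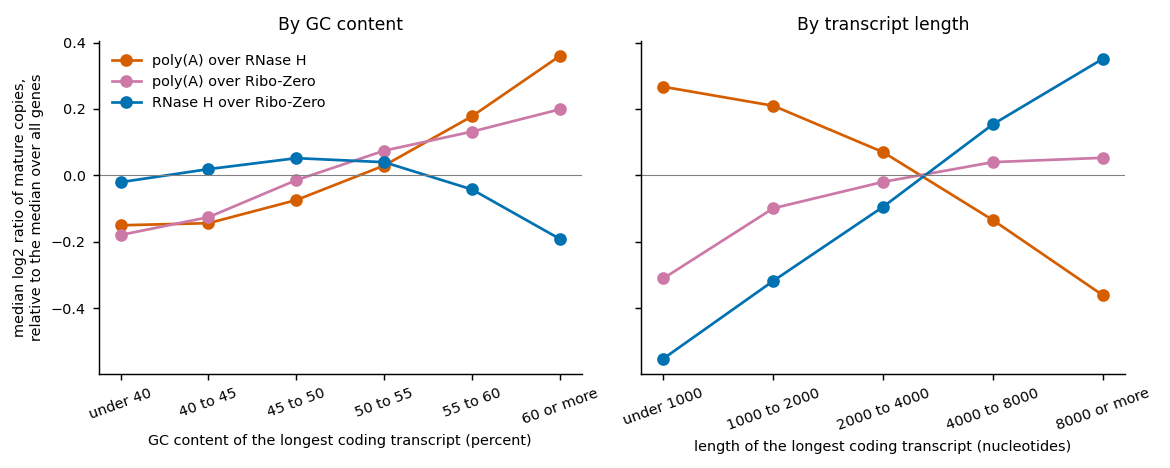
Median log2 ratio of mature copies between pairs of libraries, relative to the median over all compared genes (vertical axis), for 10293 protein-coding genes grouped by GC content (left) and by length (right) of their longest annotated coding transcript. Poly(A) over RNase H goes up with GC, from -0.15 under 40% to 0.36 at 60% or more, and RNase H over Ribo-Zero goes up with length, from -0.55 under 1000 nucleotides to 0.35 at 8000 or more.

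Protein-coding genes of different copy classes (by the median mature copies of the libraries) differed in size and start. The 111 genes at 100 copies or more had a median span of 6896 bases and a median coding length of 612 bases, against 30667 and 1356 bases over all 18207 coding members. The 6142 genes under 0.1 copies had 21361 and 1194 bases. CTTTC around the start, on the gene's strand, was in 26.1% of the 92 genes at 100 copies or more that had a promoter entry, in 3.94% of 14186 coding members and in 4.07% of all 27305 promoters in the table. It was in 28 of 65 ribosomal protein genes and in 3 of the 44 other genes at 100 copies or more. TATAA before the start was in 17.4% of the genes at 100 copies or more, in 1.65% of those with 1 to 10 copies, in 11.2% of those under 0.1 and in 4.67% of all promoters. Both strings were chosen after the data were seen, their search windows overlap from -10 to -1, and a match is not evidence of a site.

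The authors' rate table gives a centred score per gene for synthesis, processing and degradation, and scores for localization and translation from other libraries. Its copy number column equals the mean log10 mature copies of these 3 libraries for 12308 of 13289 genes within 0.01, and whether the rates also used them is not stated, so the scores are not independent of the copies. Across 11769 protein-coding genes the Spearman correlation with median mature copies was 0.847 for synthesis, 0.444 for processing, -0.597 for degradation and 0.874 for translation. For the cytoplasmic to nuclear balance it was 0.254 and for the polysomal to cytosolic balance 0.1. Median synthesis scores were -1.22 in the 796 genes under 0.1 copies and 1.4 in the 107 genes at 100 or more. Median degradation scores were 0.27 and -0.83 in the same classes. The lncRNA genes with 1 to 10 copies (113) had a median synthesis score of 0.30 and a degradation score of 0.02, against 0.32 and -0.13 in the 6776 protein-coding genes of that class, and their processing score was -0.22 against 0.13.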

How the data were processed

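Total RNA of HEK293 cells was measured in 3 libraries, 1 per selection method. The submitters' processing notes name RSEM 1.2.11, Bowtie 1.0.1 and hg19. The models were those of GENCODE 19, per the file headers, each gene with introns gaining 1 isoform that spans its locus (the primary transcript). The deposited TPM of the remaining isoforms add up to the mature value. The authors deposited copies per cell for each library. Spike-ins (ERCC) are named in the file headers for the average copies, which the authors deposited as log10. The authors' rate scores are deposited as centred scores. The other 15 libraries and the intron table were not used here, and 0 columns of per-sample values were left unmapped.

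Symbols, types, spans and coding lengths came from GENCODE release 29 by identifier: 33459 of 38500 members matched (86.9%), and unmatched entries stay in sums. Library ratios used log2 of copies plus 0.1 (mature, at least 1 copy in 1 library) or plus 0.01 (primary, at least 0.5 copies), with a 2-fold mark, and were tested on simulated data. Genes were named by rule: the 10 highest per type and form, the 3 highest and the lowest of each list, the 10 most extreme ratios and the 10 highest primary shares, from which the text names the most informative; other names are said to be chosen later. Members and lists were chosen with earlier results of these data known. Genes of the X inactivation centre and of chromosome Y were counted, with some not named. The comparison of each depleted library with both others (named genes: at least 10 copies, 10 largest), GC content and length of the longest coding transcript in GENCODE, and the start strings were added after seeing the data. 1 gene that the naming rule selects is not reported here. The alternatives tried were other thresholds, pseudocounts, filters, gene sets and TPM. Python 3.11.15, pandas 2.3.3, numpy 2.4.6 and scipy 1.17.1 were used.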

Additional observations from a re-analysis of the deposited data

How the results depend on the processing

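Of 189 alternative values, 106 stayed within 1.5-fold (correlations within 0.05) and 2 changed sign. Those 2, added after seeing the data, were the median log2 ratios of mature copies when TPM replaced copies, 0.52 for poly(A) over RNase H and 0.85 for poly(A) over Ribo-Zero; RNase H over Ribo-Zero became 0.33. No paired analysis was possible because each selection method has 1 library.

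In the order poly(A), RNase H, Ribo-Zero: genes at 0.1 primary copies numbered 2402, 10557 and 2521, and at 0.5 copies 98, 1503 and 160. At 2 mature copies poly(A) had 5489 genes. With entries that have no primary value the mature sums were 75718 in poly(A), 359890 in RNase H and 288432 in Ribo-Zero. With genes at 0 included, median mature copies of protein-coding genes were 0.667, 1.81 and 0.643 and primary copies 0.0238, 0.0834 and 0.0164; both lncRNA medians were 0 in each library. Over genes above 0 in all 3, lncRNA medians were 0.0966, 0.257 and 0.0693 mature and 0.0172, 0.0607 and 0.0107 primary copies. The median primary share in Ribo-Zero was 2.29% over genes with 0.1 primary copies in all 3. The RNase H to Ribo-Zero correlation was 0.868 over genes at 1 copy in all 3.

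The counts of genes apart in poly(A) moved with the library they were set against. Without 1 depleted library the count of higher genes was 5 to 507 (mature) and 2 to 87 (primary) and of lower genes 362 to 10244 (mature) and 71 to 1470 (primary); the high counts of higher genes came without RNase H, and those of lower genes without Ribo-Zero. Scaled to the median ratio, 22 mature genes were higher and 34 lower, and 10 primary were higher and 7 lower. At 4-fold 0 mature genes were higher and 21 lower, and 8 primary were lower. A pseudocount of 1 copy gave 1 higher and 145 lower, and 0.1 for primary gave 24 lower; a minimum of 5 copies gave 1 higher; TPM gave 531 higher and 21 lower.

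Genes apart in RNase H relative to the median (alternatives added after seeing the data) numbered 14 higher and 6 lower at 4-fold, 22 lower with a pseudocount of 1, 24 higher and 15 lower at a minimum of 5 copies and 112 higher in TPM. In Ribo-Zero they numbered 4 higher and 124 lower at 4-fold, 15 and 208 with a pseudocount of 1, and 11 and 401 at a minimum of 5 copies. Of 81 list medians, 20 moved by more than 1.5-fold when members under 1 copy in any library were left out. Copies below 1 rest on an unknown number of reads.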
